A study of Rattus norvegicus with 32 samples.

Results

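Transcripts of 7 genes that build or stabilise membrane microdomains were followed in liver sinusoidal endothelial cells (LSECs), the fenestrated cells that line the capillaries of the liver. The genes were Cav1 and Cav2 (caveolins), Ehd2 and Pacsin2 (proteins of the caveolar neck), Plvap (the protein of endothelial diaphragms) and Flot1 and Flot2 (flotillins). They were taken by gene symbol from the 32623 genes listed in each library, and each of the 7 symbols was found once. All 7 genes passed the low-count filter in each of the 7 comparisons.

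Each of the 32 libraries held the RNA of LSECs of rats, isolated by perfusion, digestion and an iodixanol density gradient. The CCl4 series had 6 healthy libraries from untreated rats, 5 of acute liver injury (2 weeks of inhaled CCl4), 5 of fibrosis (6 weeks) and 6 of cirrhosis (12 to 14 weeks, a duration that the labels of those libraries do not give). The rats were male Wistar Han, and by the study's methods the CCl4 model also received phenobarbital in the drinking water and the cells were taken several days after the last exposure. A separate experiment had 5 libraries labelled control and 5 labelled TAA control, where TAA is the toxicant thioacetamide. The study's design text describes these as Sprague-Dawley rats, healthy and with TAA cirrhosis, whereas the labels call both groups control and give Wistar Han, so no disease direction is given for them. In 4 of the 5 libraries labelled TAA control, the title and the description carry different numbers, and the numbers of the titles are used here.

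Totals ranged from 25646531 to 46464289 counts per library. Levels are given as CPM, counts scaled to the size of the library, corrected with TMM factors that were computed separately in the CCl4 series and in the TAA experiment, so that levels of the 2 experiments are not compared. A differentially expressed gene (DEG) was one that limma-voom called at a fold change of more than 1.5 with p under 0.05 before adjustment, and adjusted p-values are Benjamini-Hochberg values over all genes tested. CPM do not correct for gene length, and so each gene is compared only with itself or as a change in a ratio. No sequencing batch was named in the sources used here, so that stage and any such batch cannot be told apart.

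The cell type label was checked against marker genes. All 10 LSEC markers were detected in every group, but their summed level had a median of 21016 CPM in healthy, 2403 in acute, 2045 in fibrotic and 15393 CPM in cirrhotic libraries. Stab2, a scavenger receptor that defines LSECs, averaged 3467 CPM in healthy, 148 in acute, 176 in fibrotic and 3370 CPM in cirrhotic libraries. Stab1, of the same list, averaged 4936, 148, 160 and 1207 CPM. Of the 10 LSEC markers 9 were DEG lower than in healthy LSECs in acute injury and 10 in fibrosis, and 0 were DEG higher. In cirrhosis 4 were DEG lower and 1 higher. Of all genes 74.1%, 71.2% and 54.5% were DEG at these stages. The 5 measured pan-endothelial genes had a summed median of 9210 CPM in healthy, 2616 in acute, 1944 in fibrotic and 7467 CPM in cirrhotic libraries. Of these genes 3 were DEG lower in acute injury and 3 in fibrosis, while 1, Erg, was a DEG higher in acute injury. Tie1 averaged 3381, 408, 298 and 1717 CPM, whereas the cadherin Cdh5 averaged 1288, 1589, 1020 and 1542 CPM and was not a DEG in any comparison with healthy LSECs. The summed level of 6 hepatocyte genes ranged from 1244 to 27549 CPM in healthy libraries, with replicate 5 the lowest, from 142 to 918 in acute, 1265 to 4995 in fibrotic and 2937 to 14818 CPM in cirrhotic ones. Healthy replicates 5 and 6 stood apart for several of the 7 genes. Each result whose call or sign changed without both is also given so, an alternative chosen after seeing the data.

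Caveolae are flask-shaped pits of the plasma membrane. Their coat is made of caveolins, with CAV1 as the obligatory component in endothelium and CAV2 as its partner in hetero-oligomers, and of cavins, while EHD2 holds the neck of the pit at the membrane and PACSIN2, an F-BAR protein, bends the membrane there. PLVAP forms the thin diaphragm that spans caveolae and the fenestrae of many capillaries. The fenestrae of mature LSECs are open, without a diaphragm, which makes PLVAP a protein of interest when these cells change towards ordinary capillary endothelium. Flotillins form scaffolds of lipid rafts apart from caveolae and take part in endocytosis and in the sorting of vesicles.

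Promoter sequence was available for all 7 genes in RefSeq (build GRCr8), with 2 start sites for Cav1. The stretches of the genes that carry the largest or the paired changes are printed here, 5′ to 3′ on the gene's own strand, each ending before the gene's outermost annotated start, so that those of Flot1 and Flot2 end short of the start site used for the motif search. Cav2 and Cav1 are adjacent protein-coding genes on chromosome 4, followed by Met. Capitals mark matches on either strand to 3 motifs. The letters TGANTCA are the motif of the AP-1 factors. The letters TGATAA are a motif of the GATA factors. The letters GGGCGG are the GC box.
Plvap, chr16:18231280-18231529, minus strand: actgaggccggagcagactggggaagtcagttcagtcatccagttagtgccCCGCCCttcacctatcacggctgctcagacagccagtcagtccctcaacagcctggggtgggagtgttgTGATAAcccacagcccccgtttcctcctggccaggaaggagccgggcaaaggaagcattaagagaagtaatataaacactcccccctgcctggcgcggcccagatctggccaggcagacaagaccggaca
Cav1, chr4:46606288-46606537, plus strand: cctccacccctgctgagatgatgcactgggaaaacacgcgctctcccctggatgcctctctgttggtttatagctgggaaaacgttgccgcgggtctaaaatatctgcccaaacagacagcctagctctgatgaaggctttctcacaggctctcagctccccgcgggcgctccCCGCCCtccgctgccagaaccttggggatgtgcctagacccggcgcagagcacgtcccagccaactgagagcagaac
Cav2, chr4:46582431-46582680, plus strand: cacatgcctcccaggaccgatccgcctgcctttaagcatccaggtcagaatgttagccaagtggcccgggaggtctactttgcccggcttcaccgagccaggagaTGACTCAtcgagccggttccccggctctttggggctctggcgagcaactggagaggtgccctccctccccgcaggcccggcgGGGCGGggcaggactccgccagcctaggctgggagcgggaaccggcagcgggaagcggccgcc
Flot1, chr20:2932907-2933021, minus strand: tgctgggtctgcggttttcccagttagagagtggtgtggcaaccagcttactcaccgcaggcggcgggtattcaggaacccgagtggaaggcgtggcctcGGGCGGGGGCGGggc
Flot2, chr10:63423850-63424083, plus strand: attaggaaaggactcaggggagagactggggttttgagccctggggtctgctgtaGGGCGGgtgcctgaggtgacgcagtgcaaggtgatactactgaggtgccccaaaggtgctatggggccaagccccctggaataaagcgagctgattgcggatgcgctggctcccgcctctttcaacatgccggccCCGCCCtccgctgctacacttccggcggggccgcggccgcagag

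Within the 250 bases before each start site, the AP-1 motif was found in Cav2 alone among the 7 genes, 145 bases before the start, and in 6.34% of the 33469 promoters of the table. The letters TGATAA were found in Plvap alone, 130 bases before the start, and in 7.97% of all promoters. Other forms of the GATA motif were not searched. GC boxes were found in every one of the 7 genes except Pacsin2, with 3 copies each in Flot1 and Flot2, of which the copies nearest to the start (23 and 6 bases before it) lie outside the printed stretches, and in 30.5% of all promoters. The motif CCACCC was found in Cav1, Plvap and Ehd2 (26.1% of all promoters), and CGGAAG in Flot2 and Pacsin2 (13.9%). CACGTG was found in none of them (5.59%). These matches describe the letters of the windows and no binding was measured.

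The 7 genes fell into patterns that differed across the CCl4 series. Cav1 and Pacsin2 were higher than in healthy LSECs at all 3 stages, and Flot1, Flot2 and Plvap were lower at all 3. After acute injury all 7 genes were DEG, 3 higher and 4 lower, where 74.1% of the 14317 genes tested were DEG, 35.8% higher and 38.3% lower. The groups did not overlap for 6 of the 7 genes, all but Cav2, and for 60.1% of all genes. In fibrosis 5 of 7 were DEG, 2 higher and 3 lower, against 71.2% of 14538 genes (35.8% higher, 35.4% lower), and the groups did not overlap for these 5 genes and for 58.7% of all genes. In cirrhosis the same 5 genes were DEG, in the same directions, against 54.5% of 14789 genes (28.8% higher, 25.7% lower), and the groups did not overlap for 4 of them, all but Plvap, and for 27.3% of all genes. The 3 comparisons share the healthy libraries, and the counts of DEG among the 7 genes lie close to those backgrounds or above them. The median absolute log2 fold change of the 7 genes was 1.75 in acute injury, 1.44 in fibrosis and 0.95 in cirrhosis, beside 1.42, 1.30 and 0.78 over all genes tested. In bulk RNA a lower level of a transcript in each cell and a smaller share of the cells that make it cannot be told apart.

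**Figure D1:**
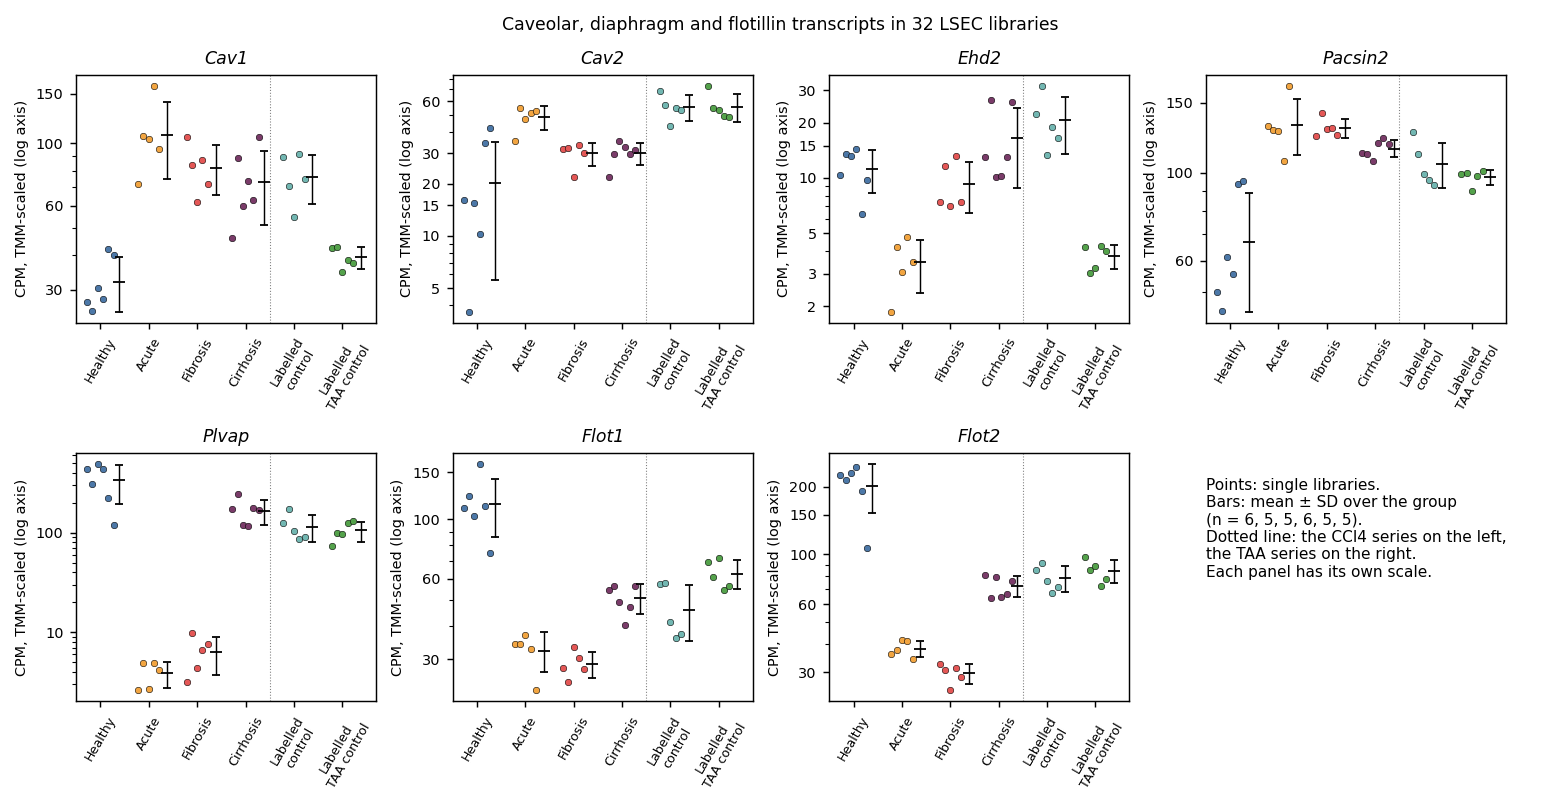
TMM-scaled CPM of the 7 genes in each library (log axes, 1 panel per gene), grouped by stage, with the mean ± SD beside each group. Plvap drops below 10 CPM in all 10 acute and fibrotic libraries, while all acute, fibrotic and cirrhotic libraries lie above the healthy ones for Cav1.

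Cav1 rose after CCl4, and its mean was highest in acute injury. The 6 healthy libraries had between 25.3 and 41.9 CPM, with a median of 29.2 CPM. Acute replicates 1, 2, 3, 4 and 8 had 71.7, 106, 104, 160 and 95.4 CPM, and fibrosis replicates 12, 13, 15, 16 and 17 had 106, 83.4, 61.8, 87.2 and 71.8 CPM. Cirrhotic libraries ranged from 46.0 to 105 CPM, with replicate 1 the lowest and replicates 2 and 6 the highest. None of the 16 libraries of CCl4-treated rats overlapped the healthy ones. Cav1 was 3.36-fold higher in acute injury (log2 fold change 1.75 ± 0.21 SE, adjusted p = 1.17e-05), 2.71-fold higher in fibrosis (1.44 ± 0.18, adjusted p = 1.83e-05) and 2.17-fold higher in cirrhosis (1.12 ± 0.21, adjusted p = 0.000747). Between the stages the differences were smaller. Fibrosis and acute injury differed by -0.26 ± 0.20 (adjusted p = 0.378) and cirrhosis and fibrosis by -0.27 ± 0.20 (adjusted p = 0.242), neither a DEG. Cirrhosis was below acute injury by a log2 fold change of -0.60 ± 0.23 (adjusted p = 0.0271), a DEG whose call was lost without acute replicate 4 (-0.46, adjusted p = 0.0706) or without cirrhosis replicate 1, 3 or 5. It was also lost with DESeq2, DESeq2 size factors, upper-quartile factors (-0.42), no low-count filter or weights per library, and 15 of 24 settings gave a DEG.

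Cav2, the gene next to Cav1, had the widest spread among healthy LSECs of the 7 genes. Healthy replicates 1 to 4 had 16.2, 3.65, 15.4 and 10.2 CPM, whereas replicates 5 and 6 had 34.2 and 41.9 CPM, an 11.5-fold range over the group (coefficient of variation 72.5%). The acute libraries had 35.5, 54.8, 47.5, 51.1 and 52.7 CPM and the fibrotic ones 31.8, 32.4, 21.9, 33.5 and 30.1 CPM. Cirrhotic libraries ranged from 21.8 to 35.1 CPM with a median of 30.6 CPM. Healthy replicates 5 and 6 thus lay within the range of the injured libraries, and the other 4 lay below it. Cav2 rose 3.11-fold in acute injury (log2 fold change 1.64 ± 0.48, adjusted p = 0.00777). The differences in fibrosis (1.01 ± 0.50, adjusted p = 0.0840) and cirrhosis (0.89 ± 0.45, adjusted p = 0.102) did not pass the test. Without healthy replicates 5 and 6 they were 1.70 (adjusted p = 0.00150) and 1.55 (adjusted p = 0.00236), both DEG, and leaving out either of these libraries alone also gave a DEG, as did library size without TMM, weights per library or 1 fit over the 4 CCl4 groups. From acute injury to fibrosis Cav2 was lower in each library, without overlap, by a log2 fold change of -0.58 ± 0.14 (adjusted p = 0.0193), just under the fold threshold and past it with edgeR or DESeq2. Cirrhosis was below acute injury by -0.72 ± 0.14 (adjusted p = 0.000416), a DEG in 22 of 24 settings but not with upper-quartile factors (-0.53) or 1 fit over the 4 CCl4 groups (adjusted p = 0.0666), and differed from fibrosis by -0.06 ± 0.14 (adjusted p = 0.706).

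The log2 ratio of Cav1 to Cav2 within a library averaged 1.03 in healthy, 1.12 in acute, 1.44 in fibrotic and 1.23 in cirrhotic libraries. In none of the 6 comparisons of the CCl4 series did it differ (exact permutation tests, two-sided, lowest p = 0.0873, adjusted over 21 tests p = 0.122, between fibrosis and acute injury). The sign of the difference between acute and healthy LSECs turned when acute replicate 4 or healthy replicate 5 or 6 was left out. Without both healthy replicates 5 and 6 the differences from healthy LSECs, which were 0.09, 0.41 and 0.20, became -0.37, -0.0463 and -0.26 (lowest exact permutation p = 0.508). Healthy libraries alone spanned the whole range that this ratio had in the CCl4 series, as the plot of ratios shows.

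Pacsin2, whose product bends membranes at the caveolar neck, varied least of the 7 genes in fibrosis and cirrhosis. The acute libraries had 131, 128, 127, 107 and 166 CPM, the fibrotic ones 124, 142, 129, 130 and 124 CPM, and the cirrhotic ones between 107 and 122 CPM. Healthy replicates 1 to 4 had 50.0, 44.9, 61.2 and 55.4 CPM and replicates 5 and 6 had 93.4 and 95.5 CPM, so that all injured libraries lay above all healthy ones. Pacsin2 was 2.09-fold higher in acute injury (log2 fold change 1.06 ± 0.22, adjusted p = 0.000725), 2.15-fold higher in fibrosis (1.11 ± 0.20, adjusted p = 0.000350) and 1.76-fold higher in cirrhosis (0.82 ± 0.18, adjusted p = 0.00242). Cirrhosis was below fibrosis in every library, but by a log2 fold change of only -0.24 ± 0.07 (adjusted p = 0.00556), under the fold threshold.

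Ehd2, which encodes the ATPase of the caveolar neck, did not move with the caveolins. Healthy libraries had 6.37 to 14.3 CPM (median 11.7 CPM). The acute libraries had 1.87, 4.19, 3.06, 4.79 and 3.50 CPM, all below the healthy ones, and Ehd2 fell 3.15-fold (log2 fold change -1.65 ± 0.29, adjusted p = 0.000230). The fibrotic libraries had 7.36, 11.5, 6.99, 13.2 and 7.42 CPM, within the healthy range and all above the acute ones. Against acute injury Ehd2 rose 2.88-fold in fibrosis (1.53 ± 0.28, adjusted p = 0.00706) and 4.41-fold in cirrhosis (2.14 ± 0.39, adjusted p = 0.000248). Against healthy LSECs it differed by -0.17 ± 0.26 in fibrosis (adjusted p = 0.552), where the sign turned without TMM scaling (0.22), and by 0.46 ± 0.30 in cirrhosis (adjusted p = 0.199), neither a DEG. Without TMM scaling the difference in cirrhosis was 0.79 and a DEG (adjusted p = 0.0326). In cirrhosis, replicates 1, 3, 4 and 5 had 12.9, 10.1, 10.2 and 12.9 CPM and replicates 2 and 6 had 26.4 and 25.8 CPM. These 2 libraries also had the highest Cav1 (88.3 and 105 CPM) and the highest summed level of lymphatic endothelial markers, 3199 and 3138 CPM against 1397 to 1877 CPM in the other 4. The largest part of that sum was Ccl21, which averaged 1216 CPM in cirrhotic libraries (523 to 2265 CPM). Flt4 averaged 641, Reln 213, Pdpn 21.1 and Prox1 20.2 CPM. The summed stellate cell and fibroblast markers of replicates 2 and 6 were 1803 and 1399 CPM against 495 to 1310 CPM. In fibrosis the replicates with the highest Ehd2, 13 and 16, had the highest sums of the same stellate list (270 and 227 CPM against 50.3 to 190 CPM), and over the stages that list had a median of 235 CPM in healthy, 16.5 in acute, 190 in fibrotic and 1209 CPM in cirrhotic libraries, all 10 of its measured genes being detected in each group. Most of the healthy sum was Col3a1 (223 CPM on average). Gene by gene, 5 of 9 tested were DEG higher in fibrosis than in healthy LSECs and 3 lower (median log2 fold change 1.16). In acute injury 0 of 9 were DEG higher and 5 lower, and in cirrhosis 9 of 10 higher and 0 lower. Of all genes 71.2%, 74.1% and 54.5% were DEG in fibrosis, acute injury and cirrhosis. In the healthy group the highest stellate sum was that of replicate 6 (612 CPM), with Ehd2 at 9.75 CPM, below the group median. In the acute group it was that of replicate 8 (48.8 CPM), with Ehd2 at the group median of 3.50 CPM. The part of these cell types in the Ehd2 level was not tested.

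**Figure D2:**
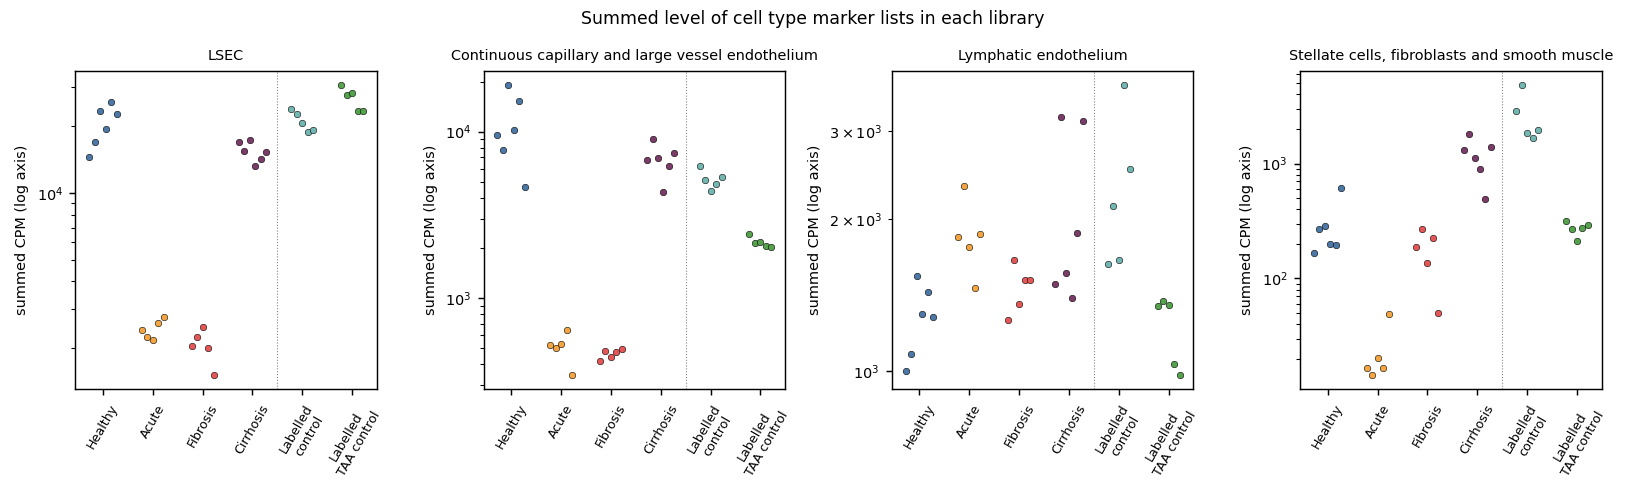
Summed CPM of 4 marker lists in each library (log axes), grouped as in the plot of the 7 genes. The LSEC and capillary lists are low in the 10 acute and fibrotic libraries, cirrhosis replicates 2 and 6 stand out in the lymphatic list, and the stellate list is high in cirrhotic and in labelled control libraries.

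Plvap showed the largest change of the 7 genes. Healthy replicates 1 to 4 had 434, 308, 487 and 440 CPM, and replicates 5 and 6 had 223 and 120 CPM. The acute libraries had 2.63, 4.89, 2.70, 4.88 and 4.17 CPM and the fibrotic ones 3.18, 9.86, 4.42, 6.61 and 7.54 CPM. Cirrhotic replicates 1 to 6 had 172, 242, 121, 116, 176 and 168 CPM, which overlapped only the healthy replicates 5 and 6. Plvap was 79.2-fold lower in acute injury than in healthy LSECs (log2 fold change -6.31 ± 0.43, adjusted p = 8.33e-08) and 48.6-fold lower in fibrosis (-5.60 ± 0.43, adjusted p = 3.19e-07). From the lowest log2 fold change upwards, Plvap had rank 279 of the 14317 genes tested in acute injury and rank 180 of 14538 in fibrosis. In cirrhosis it was 1.93-fold lower than in healthy LSECs (-0.95 ± 0.33, adjusted p = 0.0246) and 26.2-fold higher than in fibrosis (4.71 ± 0.29, adjusted p = 2.49e-08). Without healthy replicates 5 and 6 the difference between cirrhosis and healthy LSECs was -1.41 (adjusted p = 0.000140), and with library size alone in place of TMM it was -0.60 and no longer a DEG (adjusted p = 0.0847).

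The summed level of markers of continuous capillaries and large vessels was also lower in acute injury and fibrosis. It had a median of 9840 CPM in healthy, 526 in acute, 473 in fibrotic and 6864 CPM in cirrhotic libraries, with all 10 genes detected in each group, and the sum of the LSEC list followed the same course. Of the 10 genes 5 were DEG lower in acute injury and 6 in fibrosis, and 0 were DEG higher at either stage. In cirrhosis 4 of the 10 were DEG higher than in healthy LSECs and 2 lower, with a median log2 fold change of 0.16. Of all genes 74.1%, 71.2% and 54.5% were DEG at these stages. Most of the healthy sum came from Aqp1 (8147 CPM, 44.2 in acute injury and 3433 in cirrhosis) and Vwf (2301 CPM, 10.7 in acute injury and 2414 in cirrhosis). Fabp4 averaged 97.0 and 118 CPM and Fabp5 164 and 160 CPM in healthy and acute libraries. The part of these cell types in the Plvap level was not tested. The sum of the pan-endothelial list, given above, was lower as well, with 3 of its 5 genes (Kdr, Tie1 and Tek) DEG lower at both stages. Cdh5 was not a DEG, and Erg was a DEG higher in acute injury (77.2 CPM in healthy and 137 CPM in acute libraries).

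The small rise of Plvap from acute injury to fibrosis (log2 fold change 0.75 ± 0.32, adjusted p = 0.120) was a DEG by the unadjusted p-value alone. The groups overlapped, and the call was lost when any of acute replicates 1, 3 and 8 or fibrosis replicates 13, 16 and 17 was left out, with values from 0.57 to 0.78, and with library size alone (0.69) or 1 fit over the 4 CCl4 groups (0.67). With Ehd2 it made 2 DEG among the 7 genes between fibrosis and acute injury, where 15.7% of 13931 genes were DEG, 14.3% higher and 1.39% lower in fibrosis. The groups did not overlap for 3 of the 7 genes (Cav2, Flot2 and Ehd2) and for 18.7% of all genes.

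Flot1 and Flot2, whose products form joint scaffolds of lipid rafts, fell together. Healthy Flot2 levels were 226, 213, 230, 244 and 192 CPM in replicates 1 to 5 and 107 CPM in replicate 6. The acute libraries had 36.1, 37.7, 41.6, 41.4 and 34.4 CPM, the fibrotic ones 32.5, 30.7, 25.0, 31.4 and 28.5 CPM, and the cirrhotic ones 64.3 to 81.4 CPM. The stages did not overlap with each other or with healthy LSECs, and Flot2 stepped down from healthy to acute to fibrotic LSECs and then rose in cirrhosis. Flot2 was 5.00-fold lower in acute injury (log2 fold change -2.32 ± 0.20, adjusted p = 6.58e-07), 6.22-fold lower in fibrosis (-2.64 ± 0.20, adjusted p = 3.24e-07) and 2.78-fold lower in cirrhosis (-1.48 ± 0.20, adjusted p = 0.000145). The step from acute injury to fibrosis was -0.27 ± 0.09 (adjusted p = 0.0609) and no DEG.

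Flot1 levels were 74.8 to 161 CPM in healthy libraries, with replicate 6 again the lowest. The acute libraries had 34.4, 34.4, 37.1, 32.9 and 23.0 CPM, the fibrotic ones 27.9, 24.7, 33.4, 30.4 and 27.6 CPM and the cirrhotic ones 40.4 to 56.6 CPM. Acute and fibrotic libraries overlapped and all cirrhotic libraries lay above both and below all healthy ones. Flot1 fell 3.39-fold in acute injury (log2 fold change -1.76 ± 0.19, adjusted p = 4.76e-06), 3.64-fold in fibrosis (-1.86 ± 0.18, adjusted p = 1.80e-06) and 2.25-fold in cirrhosis (-1.17 ± 0.18, adjusted p = 0.000223).

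In cirrhosis both flotillins were above their level in fibrosis, Flot1 by 0.75 ± 0.10 (adjusted p = 2.82e-05) and Flot2 by 1.22 ± 0.09 (adjusted p = 1.92e-07). With Plvap they were the 3 DEG of the 7 genes between cirrhosis and fibrosis, all higher, where 64.2% of 15186 genes were DEG, 34.5% higher and 29.7% lower. Ehd2 missed the threshold there (0.69 ± 0.32, adjusted p = 0.0671), and was a DEG in 9 of 23 settings. These were edgeR, DESeq2 (0.78, adjusted p = 0.0168), DESeq2 size factors, upper-quartile factors, no low-count filter, 1 fit over the 4 CCl4 groups, and cirrhosis replicate 3 or 4 or fibrosis replicate 16 left out. The groups did not overlap for 4 of the 7 genes and for 62.9% of all genes. Between cirrhosis and acute injury 6 of 7 genes were DEG, 4 higher (Plvap, Flot1, Flot2 and Ehd2) and 2 lower (Cav1 and Cav2), against 69.7% of 15005 genes, 37.8% higher and 31.9% lower. The groups did not overlap for 5 of the 7 genes, all but Cav1 and Pacsin2, and for 65.5% of all genes. Among these, Plvap was 41.8-fold higher (5.39 ± 0.29, adjusted p = 4.77e-09) and Flot2 1.84-fold higher (0.88 ± 0.09, adjusted p = 2.02e-06), while Flot1 was just past the fold threshold (0.62 ± 0.13, adjusted p = 0.000800) and under it without acute replicate 8 (0.49), with library size alone (0.52) or with weights per library (0.47).

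**Figure D3:**
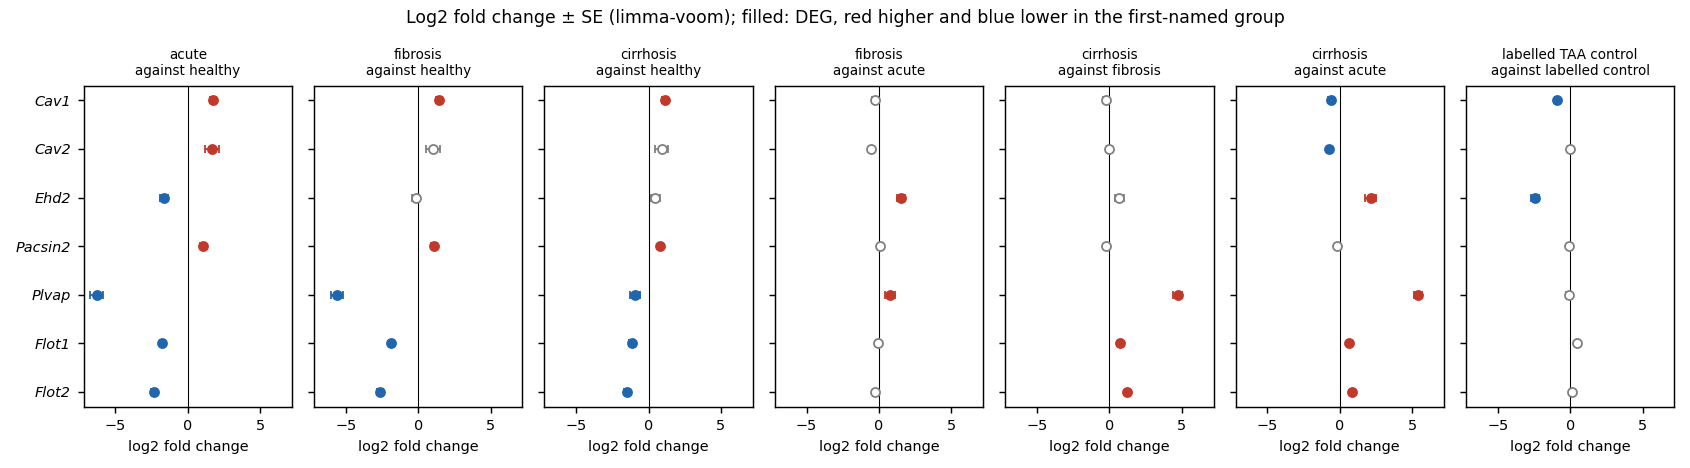
Log2 fold change ± SE (x axis) of the 7 genes in the 7 comparisons, from limma-voom. Filled points are DEG, red where the first-named group was higher and blue where it was lower. Plvap reaches -6.31 in acute injury and 4.71 between cirrhosis and fibrosis, and the caveolins and flotillins lie on opposite sides of 0 in the 3 comparisons with healthy LSECs.

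Flot2 fell further than Flot1. The log2 ratio of Flot1 to Flot2 averaged -0.81 in healthy, -0.26 in acute, -0.04 in fibrotic and -0.51 in cirrhotic libraries. It was higher than in healthy LSECs by 0.56 in acute injury (exact permutation test, two-sided, p = 0.00866, adjusted over 21 tests p = 0.0182) and by 0.77 in fibrosis without overlap (p = 0.00216, the smallest that 5 against 6 libraries allow, adjusted p = 0.00909). Its difference in cirrhosis was 0.30 (exact permutation p = 0.0368, adjusted p = 0.0641) and did not pass the adjusted threshold. Cirrhotic libraries were below fibrotic ones by 0.47 (exact permutation p = 0.00866, adjusted p = 0.0182). A ratio within a library does not depend on the scaling of libraries.

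The log2 ratio of Plvap to Cav1 moved most of all, from 3.26 in healthy to -4.80 in acute, -3.78 in fibrotic and 1.20 in cirrhotic libraries. The differences from healthy LSECs were -8.06 and -7.04 in acute injury and fibrosis (exact permutation p = 0.00216 each, adjusted p = 0.00909) and -2.06 in cirrhosis (p = 0.00433, exact permutation, adjusted p = 0.0152). Cirrhosis overlapped the healthy group in this ratio, at healthy replicate 6. Between fibrosis and acute injury the ratio differed by 1.02 (exact permutation p = 0.0397, adjusted p = 0.0641), which did not pass the adjusted threshold.

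**Figure D4:**
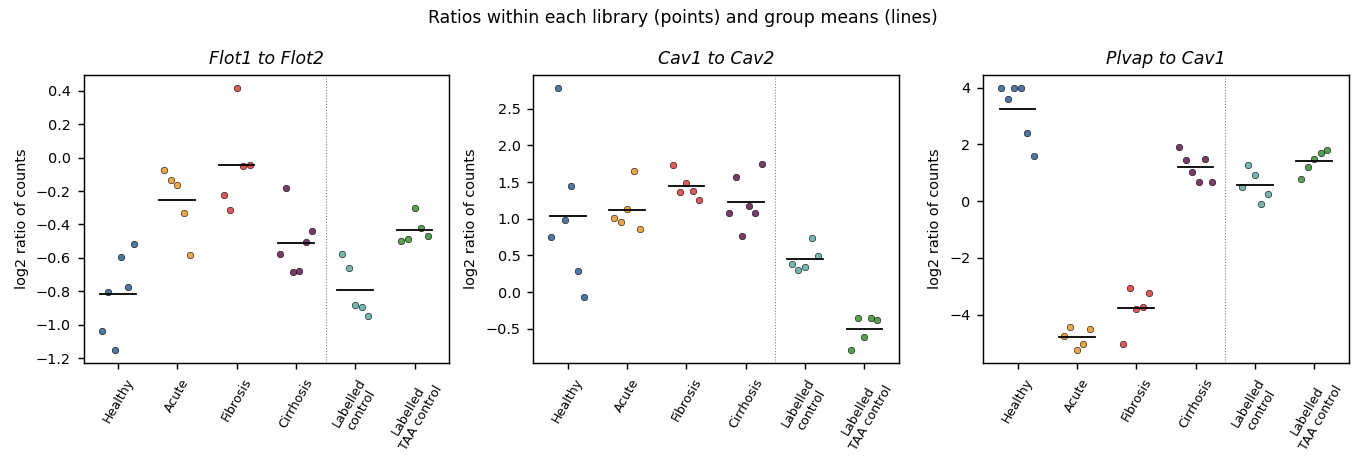
Log2 ratio of counts of Flot1 to Flot2, Cav1 to Cav2 and Plvap to Cav1 in each library (points), with group means (lines). The Cav1 to Cav2 ratio of the 5 libraries labelled TAA control lies below all 5 labelled control, and Plvap to Cav1 is negative in all acute and fibrotic libraries.

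Other genes of the caveolar machinery changed in both directions. Of 11 other coat and neck genes, 9 could be tested, and in acute injury and in fibrosis 1 rose and 5 fell at each stage, while in cirrhosis 3 fell and 0 rose in limma-voom (1, Ehd4 at 0.36, had a positive value with an unadjusted p under 0.05 and was below the fold threshold). These 6, 6 and 3 of 9 genes stand beside the 74.1%, 71.2% and 54.5% of all genes that were DEG. Their median log2 fold changes were -0.84, -0.98 and -0.49, beside -0.09, -0.03 and 0.07 over all genes tested. The largest falls in acute injury were those of Prkcdbp (cavin-3, -4.12 ± 0.24, adjusted p = 2.26e-08), Sdpr (cavin-2, which shapes endothelial caveolae, -3.97 ± 0.43, adjusted p = 4.52e-06) and Ehd3, a relative of Ehd2 (-3.05 ± 0.33, adjusted p = 3.82e-06). The same 3 genes led in fibrosis, with -3.23, -3.24 and -3.10. Sdpr averaged 218 ± 119 CPM (SD, n = 6) in healthy and 277 ± 59.7 CPM in cirrhotic libraries, a difference that did not pass the test (0.46 ± 0.28, adjusted p = 0.180). Ptrf (cavin-1, which caveolae require) was lower by -0.51, -0.53 and -0.49 in the 3 stages (adjusted p = 0.00408, 0.00366 and 0.0154), each under the fold threshold; it was named for its role after its values were seen. In cirrhosis the 3 falls were those of Pacsin3, a relative of Pacsin2 (-1.45 ± 0.26, adjusted p = 0.000614), Prkcdbp (-1.28 ± 0.21, adjusted p = 0.000379) and Dnm2, the dynamin that severs vesicle necks (-0.63 ± 0.15, adjusted p = 0.00304). The muscle genes Cav3 and Murc (cavin-4) were at or near 0 and were not tested.

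Flotillins share the SPFH domain with stomatins, prohibitins and erlins. Of 7 such genes tested, 3 rose and 2 fell in acute injury, 2 rose and 2 fell in fibrosis, and 5 fell and 0 rose in cirrhosis (1, Erlin1 at 0.46, was positive with an unadjusted p under 0.05 in limma-voom and below the fold threshold), with median log2 fold changes of 0.44, 0.09 and -0.85, beside -0.09, -0.03 and 0.07 over all genes. Counts of 5, 4 and 5 of 7 DEG stand beside 74.1%, 71.2% and 54.5% of all genes. Stom, a raft protein of the plasma membrane, fell from 2868 CPM in healthy to 95.8 CPM in acute libraries (-4.84 ± 0.31, adjusted p = 5.36e-08), to 115 CPM in fibrosis (-4.51 ± 0.29, adjusted p = 7.44e-08) and to 1170 CPM in cirrhosis (-1.24 ± 0.26, adjusted p = 0.00172). Stoml1 followed with -2.98, -3.06 and -1.57. Erlin1, a protein of cholesterol-rich domains of the endoplasmic reticulum, went the other way, by 2.67 ± 0.15 in acute injury (adjusted p = 2.42e-08) and 2.38 ± 0.14 in fibrosis (adjusted p = 3.69e-08). Phb, the mitochondrial prohibitin, fell in cirrhosis (-1.19 ± 0.20, adjusted p = 0.000415) after rises of 1.56 and 1.17 at the earlier stages.

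Proteins that work in or bind to caveolae and rafts were counted over 11 genes of their list. In acute injury 0 rose in limma-voom (0 also had a positive value with an unadjusted p under 0.05) and 7 fell, in fibrosis 1 rose and 6 fell, and in cirrhosis 3 rose and 4 fell. The 7 DEG of 11 genes at each stage stand beside 74.1%, 71.2% and 54.5% of all genes. Nos3, the endothelial nitric oxide synthase held by caveolin-1, fell by -4.93 ± 0.23, -4.99 ± 0.23 and -1.32 ± 0.22 (adjusted p = 4.71e-09, 7.14e-09 and 0.000380). Aqp1, a water channel of caveolae, fell by -7.64 ± 0.56 in acute injury (adjusted p = 1.54e-07) and -6.27 ± 0.52 in fibrosis (adjusted p = 5.44e-07), and Ace, the angiotensin-converting enzyme, by -5.52 and -4.07. In cirrhosis the largest changes of the list were rises, of Insr (insulin receptor, 2.32 ± 0.30, adjusted p = 0.000124), Bmpr2 (1.64 ± 0.34, adjusted p = 0.00166) and Cd36 (fatty acid uptake, 1.40 ± 0.38, adjusted p = 0.00782).

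Of the genes of fenestrae and transcytosis, 6 were tested in acute injury and 7 at the later stages. In acute injury and in fibrosis 1 rose (Vegfa) and 4 fell, and in cirrhosis 2 rose, 1 of them (Vegfa) without an adjusted p under 0.05, and 1 fell. Of all genes tested 74.1%, 71.2% and 54.5% were DEG at these stages. Gpihbp1, the capillary anchor of lipoprotein lipase, fell by -6.78 ± 0.63 (adjusted p = 1.21e-06), -5.50 ± 0.50 (adjusted p = 1.10e-06) and -1.69 ± 0.34 (adjusted p = 0.00124). It averaged 6.55 CPM in healthy, 0.0653 in acute and 0.127 CPM in fibrotic libraries, so near the floor that the sizes of the first 2 falls are uncertain. Kdr, the VEGF receptor that drives fenestration and also stands in the list of partners, fell by -3.96 ± 0.35 and -3.59 ± 0.26 (adjusted p = 6.63e-07 and 1.75e-07). Mfsd2a, an inhibitor of transcytosis, fell by -4.66 ± 1.51 in acute injury (adjusted p = 0.0134), and Flt1 by -3.23 ± 0.20 in fibrosis (adjusted p = 5.92e-08). The Mfsd2a levels overlapped, with 0.280 to 23.4 CPM in healthy and 0.0812 to 0.691 CPM in acute libraries. Aplnr, the apelin receptor, rose by 2.24 ± 0.45 in cirrhosis (adjusted p = 0.00137), to 1.93 CPM.

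**Figure D5:**
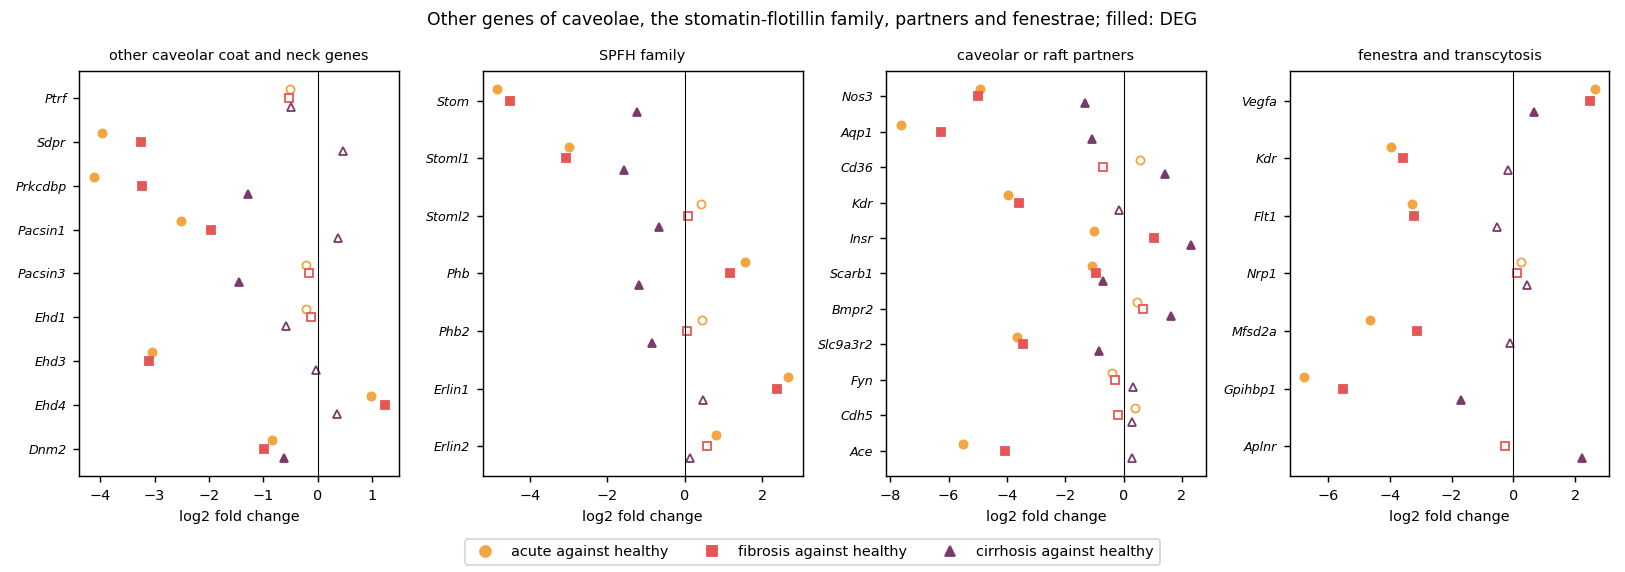
Log2 fold changes (x axis) of the tested genes of the 4 pathway lists at the 3 stages against healthy LSECs, filled where the gene was a DEG. Most genes with large falls in acute injury and fibrosis lie nearer to 0 in cirrhosis, and Erlin1 lies at 2.67 and 2.38.

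In the TAA experiment 2 of 7 genes were DEG, Cav1 and Ehd2, both lower in the group labelled TAA control, where 29.4% of 14376 genes were DEG, 13.5% higher and 15.9% lower. Cav1 levels were 89.3, 70.3, 54.5, 91.3 and 74.9 CPM in labelled control replicates 1 to 5 and 42.4, 42.8, 34.7, 38.5 and 37.4 CPM in labelled TAA control replicates 10, 12, 13, 14 and 15. Ehd2 levels were 22.4, 31.7, 13.2, 18.9 and 16.4 CPM against 4.21, 3.03, 3.24, 4.26 and 3.99 CPM. For both genes, and for 35.1% of all genes, the groups did not overlap. Cav1 was 1.92-fold lower (log2 fold change -0.94 ± 0.14, adjusted p = 0.000312) and Ehd2 5.31-fold lower (-2.41 ± 0.28, adjusted p = 9.45e-05), and Ehd2 had rank 501 of 14376 genes from the lowest log2 fold change upwards. Markers of stellate cells and fibroblasts differed in the same direction, with summed levels of 1681 to 4811 CPM in labelled control and 212 to 315 CPM in labelled TAA control libraries. So did the sum of the capillary list, with 4406 to 6204 against 2040 to 2413 CPM, though of its 10 genes 5 were DEG lower and 2 DEG higher. The lymphatic list had 1633 to 3698 against 982 to 1379 CPM, with 4 of its 5 genes DEG lower and the lymphatic chemokine Ccl21 at 1069 against 3.49 CPM on average, and the hepatocyte list had 2187 to 5335 against 630 to 1440 CPM, with 5 of 6 genes DEG lower. Other lists went the other way. The LSEC list had 18954 to 24052 CPM in labelled control and 23404 to 30708 CPM in labelled TAA control libraries, with 3 of 10 genes DEG higher and 0 lower. The pan-endothelial list had 7012 to 9237 against 8703 to 11338 CPM, with 1 of 5 genes DEG higher and 0 lower. Of the macrophage, lymphocyte and neutrophil genes tested, 1 of 7, 2 of 3 and 1 of 1 were DEG higher and 0 lower. The part of these cell types in the result was not tested.

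The other 5 genes were not DEG in the TAA experiment. Cav2 differed by 0.01 ± 0.13 (adjusted p = 0.975), Plvap by -0.11 ± 0.20 (adjusted p = 0.664), Flot2 by 0.10 ± 0.10 (adjusted p = 0.384) and Pacsin2 by -0.11 ± 0.08 (adjusted p = 0.293). Flot1 was higher in labelled TAA control libraries by 0.46 ± 0.14 (adjusted p = 0.0189), under the fold threshold, and 2 of the libraries labelled TAA control, at 54.3 and 56.4 CPM, lay below the highest labelled control at 57.9 CPM. The log2 ratio of Cav1 to Cav2 was 0.45 in labelled control and -0.50 in labelled TAA control libraries, without overlap (difference -0.95, exact permutation p = 0.00794, the smallest that 5 against 5 libraries allow, adjusted p = 0.0182). The ratio of Flot1 to Flot2 differed by 0.36 (exact permutation p = 0.00794, adjusted p = 0.0182), also without overlap. The ratio of Plvap to Cav1 differed by 0.83 (exact permutation p = 0.0397, adjusted p = 0.0641), which did not pass the adjusted threshold. In the other caveolar genes 2 were higher and 4 lower in labelled TAA control libraries, among them Ehd3 (1.01 ± 0.20, adjusted p = 0.00205) and Ehd1 (-1.52 ± 0.20, adjusted p = 0.000212), both named after their values were seen. Of the 7 SPFH genes tested 0 were DEG in limma-voom, and 1 (Erlin1, at -0.22 ± 0.08) had an unadjusted p under 0.05 (adjusted p = 0.0303).

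Over the 22 libraries of the CCl4 series the profiles of the 7 genes were compared with those of 8353 expressed genes by the root mean square difference of log2 CPM centred on each gene's mean. Pacsin2 had the closest neighbours, Pak2 (0.12), Rab2a (0.12) and Trip12 (0.15). Flot2 was most like Arhgef1 (0.15), Ext2 (0.17) and Selenon (0.18), and Flot1 most like Slx1b (0.18), Snx17 (0.19) and Hs1bp3 (0.19). Cav1 was most like Timm44 (0.27), Nol7 (0.27) and Recql (0.28), and Cav2 was like Zdhhc17 (0.28) and Emc2 (0.31). Plvap (Nrxn2 at 0.47, Fam110d at 0.48, Emilin1 at 0.49) and Ehd2 (Nrg1 at 0.50, Myo1e and Trim47 at 0.51) had no neighbour as close in these units. The difference was not scaled to a gene's own spread over the 22 libraries. The SD of log2 CPM was 2.91 for Plvap, 1.11 for Flot2, 0.95 for Ehd2, 0.88 for Cav2, 0.83 for Flot1, 0.75 for Cav1 and 0.51 for Pacsin2. These distances therefore do not rank how well the courses of genes with unlike spread match. Among the 7 genes themselves the closest pairs were Flot1 with Flot2 (0.36) and Cav1 with Pacsin2 (0.43), ahead of Cav2 with Pacsin2 (0.53) and Cav1 with Cav2 (0.55), and the most distant pair was Cav1 with Plvap (3.42). The points share their libraries, and the distances are descriptions without a test.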

How the data were processed

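Poly(A) RNA libraries of 32 LSEC preparations were made with a stranded kit and sequenced on an Illumina platform. The submitters' processing notes name FastQC, Trim Galore, STAR, RSEM and limma, and the build Rnor_6.0. Their versions were not given in the sources used here. The authors deposited gene-level RSEM values, which are expected counts with decimals, for 32623 genes per library, neither normalized nor pooled. RSEM shares a read between the genes it matches, which leaves genes with a near-identical copy uncertain.

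Expected counts were rounded to whole numbers and analysed in R 4.3.3 with limma 3.58.1 and edgeR 4.0.16. Following the study's methods, each comparison was fitted with limma-voom and TMM factors on the libraries of its 2 groups, without covariates, after edgeR's filterByExpr. DEG passed a fold change of 1.5 with p under 0.05 before adjustment. SE are those of the moderated fit. Log2 ratios within a library used a pseudocount of 0.5 counts and exact permutation tests over libraries (two-sided, on the absolute difference of means), adjusted over 21 tests. Totals per library of 25646531 to 46464289 counts limit the precision of low genes, and p-values measure the spread between libraries of a group, which the labels tie to single rats by number only. The scripts were tested on simulated data. Plots were made in matplotlib 3.10.9 (Python 3.11.15).

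Groups came from the labels. Labelled TAA control replicates 14 and 15 were more alike than any other pair of libraries of a group (chi-square per degree of freedom 2.96, against 23.6 or more for the closest pair of each other group) but differed by more than sampling noise and were kept as 2 libraries. That difference does not show that they came from 2 rats, and the tests counted them as 2. With either left out, the Cav1 to Cav2 and Flot1 to Flot2 differences of the TAA experiment kept their sign and an unadjusted permutation p under 0.05. The 7 genes, the pathway lists and the marker lists were chosen with earlier results of these data known. Of the pathway lists, genes were named by the largest absolute log2 fold change at each stage against healthy LSECs, at most 3 per list and stage, among DEG with an adjusted p under 0.05. The most alike genes were the 3 with the smallest difference among genes with a symbol and a mean log2 CPM of at least 3. 1 gene of the lists and 1 of the most alike genes are not reported here, and the list counts are without that gene. Of the marker lists, Pecam1 and Col1a2 were not analysed here. Promoter windows are RefSeq's (GRCr8), from 250 bases before the start, and no other coordinate of that build is printed. Alternatives were adjusted p-values, no fold threshold, edgeR's quasi-likelihood test, DESeq2 1.42.0, other scalings, filters and weights per library, 1 fit over the 4 CCl4 groups, each library left out and a replicate block.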

Additional observations from a re-analysis of the deposited data

Results flagged for a closer look

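A library lying apart from the rest of its group was looked for in each of the 6 groups with Dixon's test, for the level (log2 CPM) of each of the 7 genes, the total count and the TMM factor. Of 54 such tests 9 were past the 95% limit, 6 of them among the 42 for the levels of the genes, where chance alone passes it in about 1 of 20. The numbers given in brackets are the gap to the nearest library as a share of the group's range.

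Cav2 stood out in 3 groups. Cirrhosis replicate 1 was the lowest at 21.8 CPM (0.65), below 29.7 to 35.1 CPM in the other libraries. Fibrosis replicate 15 was the lowest at 21.9 CPM (0.746), below 30.1 to 33.5 CPM. Labelled TAA control replicate 10 was the highest at 73.4 CPM (0.725), above 48.7 to 54.6 CPM. Cirrhosis replicate 1 was also the lowest of its group for Cav1 at 46.0 CPM, and fibrosis replicate 15 the lowest of its group for Cav1 at 61.8 CPM.

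For the flotillins, healthy replicate 6 was the lowest for Flot2 at 107 CPM (0.711), below 192 to 244 CPM, and acute replicate 8 the lowest for Flot1 at 23.0 CPM (0.747), below 32.9 to 37.1 CPM. Acute replicate 8 also had the lowest TMM factor of its group, 0.980 against 1.12 to 1.18 (0.715). Over 15578 genes, healthy replicate 6 was the healthy library nearest to the cirrhotic libraries. Its root mean square difference from single cirrhotic libraries averaged 1.12 log2 units, where replicate 5 had 1.42 and the other 4 had 1.44 to 1.70. Healthy replicate 6 was also the only healthy library that lay nearer to the cirrhotic libraries than to the other healthy ones (1.29). Pacsin2 was lowest in labelled TAA control replicate 13 at 89.7 CPM (0.765), below 98.0 to 101 CPM. The total count was highest in acute replicate 4 (36916992 counts, 0.805) and in labelled control replicate 5 (32631606 counts, 0.822).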

How the results depend on the processing

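The number of DEG among the 7 genes stayed within 1.5 times its value in 6 of the 7 comparisons under every alternative run. Between fibrosis and acute injury it was 2, and 1 with adjusted p-values or with 1 fit over the 4 CCl4 groups, 4 without the fold threshold and 1 to 3 when single libraries were left out. Among refits of single log2 fold changes 1039 kept direction and call, 37 gained a call, 25 lost it and 12 changed sign, none of which was a DEG. These were Ehd2 in fibrosis against healthy LSECs without TMM (0.22), Cav2 in cirrhosis against fibrosis with upper-quartile factors (0.0313) and without cirrhosis replicate 1 (0.0414, the highest of a range from -0.165 with single libraries left out), and in the TAA experiment Cav2 with DESeq2 (-0.0118) or its size factors (-0.0121), library size (-0.0301), weights per library (-0.00066) and single libraries left out (from -0.0929 to 0.0810), and Plvap with single libraries left out (from -0.204 to 0.0334). Leaving out single libraries changed the side of the threshold or the sign of these log2 ratios. Cav1 to Cav2 ranged from -0.13 to 0.44 in acute injury (negative values -0.06, -0.13 and -0.04), 0.19 to 0.76 in fibrosis and -0.0180 to 0.55 in cirrhosis against healthy LSECs, and 0.25 to 0.46 in fibrosis against acute injury. Flot1 to Flot2 ranged from 0.23 to 0.36 in cirrhosis against healthy LSECs and -0.34 to -0.21 against acute injury. Plvap to Cav1 ranged from 0.85 to 1.34 in fibrosis against acute injury and 0.66 to 1.002 in the TAA experiment. Without both healthy replicates 5 and 6 (chosen after seeing the data) Cav1 to Cav2 differed from healthy LSECs by -0.37 in acute injury, -0.0463 in fibrosis and -0.26 in cirrhosis, and the other 6 ratio differences kept sign and side. The cause was not tested. Without TMM the median log2 fold change of all genes rose by 0.41, 0.40 and 0.35 in acute injury, fibrosis and cirrhosis against healthy LSECs, and the share of DEG that were higher went from 50.3% to 60.7% in fibrosis and from 52.8% to 71.2% in cirrhosis. Upper-quartile factors moved the median by 0.14 in cirrhosis against healthy LSECs and 0.19 against acute injury. Replicate numbers shared by groups did not mark shared animals, and same-numbered libraries deviated together in none or some pairs only (correlations -0.21 to 0.23). With the replicate block 7 genes were DEG in acute injury and 5 in cirrhosis against healthy LSECs, and 5 in cirrhosis against acute injury, where Flot1 (0.53) fell under the fold threshold. With labelled TAA control replicates 14 and 15 summed, 2 genes were DEG. The lowest counts behind a level were those of Ehd2, with 69 to 208 per acute library and 90 to 123 per library labelled TAA control, and of Plvap, with 97 to 212 per acute library.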

Other observations

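Further genes of the same lists are named here after their values were seen. Ehd4, another EH-domain ATPase, was higher than in healthy LSECs in acute injury (log2 fold change 0.99 ± 0.16, adjusted p = 0.000115) and fibrosis (1.23 ± 0.12, adjusted p = 1.92e-06), from 162 to 317 and 355 CPM, while Ehd2 and Ehd3 were lower in acute injury and Ehd1 was not a DEG (-0.21 ± 0.29, adjusted p = 0.511). In the TAA experiment Insr (-2.65 ± 0.27, adjusted p = 4.81e-05) and Ace (-2.33 ± 0.19, adjusted p = 1.42e-05) were lower in libraries labelled TAA control, as were Cav1 and Ehd2.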
